A study of Mus musculus with 4 samples.

Results

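Genes for the subunits of the mitochondrial respiratory chain and the ATP synthase were followed in ATDC5 cells, which are a chondrogenic line from mouse, after knockdown of Chadl, which encodes the leucine-rich repeat protein chondroadherin-like. The members were all probe sets with exactly 1 gene symbol that starts with Nduf, Sdh followed by a to d, Uqcr, Atp5 or Cox4 to Cox8, together with Cyc1 and Cycs. The rule used names and no measured value. It took 157 of 45037 probe sets, which stand for 93 of 17097 named genes. Of these genes 35 belong by symbol to complex I, 4 to complex II, 8 to complex III, 17 to complex IV and 17 to complex V. Cycs encodes cytochrome c, and the other 11 are assembly factors, 7 with symbols starting Ndufaf and 4 starting Sdhaf, which the symbol rule also takes.

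Knockdown cells received a 27-mer RNA duplex specific for Chadl, the only sequence that the labels report as effective, and control cells received a scrambled negative control duplex. Both groups were therefore transfected, with 30 nM duplex and the lipid reagent Lipofectamine 2000, and changed to differentiation medium after 16 h. RNA was taken at 5 days and read on 4 arrays, 2 knockdown and 2 control, as log2 signal per probe set. Arrays of a group are labelled as biological replicates, but nothing says that they came from separate cultures. The p-values therefore measure only the spread between these arrays, which may be technical. In such bulk RNA, fewer cells of a type and less RNA per cell cannot be told apart.

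The respiratory chain sits in the inner mitochondrial membrane. Complex I takes electrons from NADH and complex II takes them from succinate, both pass them to ubiquinone, complex III hands them on to cytochrome c, and complex IV delivers them to oxygen. Complexes I, III and IV pump protons while doing so, and complex V, the ATP synthase, uses the resulting gradient to make ATP. Most subunits are encoded in the nucleus and imported, while a core set in complexes I, III, IV and V is encoded in the mitochondrial genome. Those mitochondrial genes were not analysed here. Growth plate chondrocytes live with little oxygen and are known for a strong reliance on glycolysis.

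Signal of the chain genes was close to level between the groups. With limma on all 45037 probe sets, 0 of the 157 member probe sets passed a Benjamini-Hochberg adjusted p of 0.05, where the percentage passing over all probe sets was 0.00222 (1 probe set). The smallest adjusted p of a member probe set was 0.569. At an unadjusted p under 0.05, 0 member probe sets were higher and 4 were lower, of 157, where 7.26% of all probe sets passed in either direction. At the same threshold, 0 member genes were higher and 2 were lower, Uqcrq and Ndufaf2, where over all genes 4.4% were higher and 2.56% lower. Both knockdown arrays lay above both controls in 12 member genes (12.9%), against 21.2% of all genes, and below both in 20 (21.5%), against 17.1% of all genes. Among genes with a mean signal of 8 or more, 10 of 72 members (13.9%) lay above both controls, against 22.6% of all such genes. Below both were 16 of these members (22.2%), against 21.9%, so that the share of lower members was near that of bright genes. The counts are small, and no test was made of the difference between these shares.

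The median log2 difference between knockdown and control was -0.015 over the 93 member genes and 0.0067 over all genes. For genes with a mean signal of 8 or more it was -0.016 and -0.0044 in the same order. Member differences ran from -0.21 for Ndufaf2 to 0.17 for Cox7b2, with an SD across genes of 0.058, against 0.13 over all genes. The 95% confidence interval lay wholly within a 1.2-fold change either way in 84 of 93 member genes (90.3%), against 47.5% of all genes, and within 1.5-fold in all 93, against 97.0%. Member genes were brighter, with a median mean signal of 9.35 against 4.86, and intervals narrow with signal in this fit. Among genes with a mean signal of 8 or more, the interval lay within 1.2-fold for 72 of 72 members and for 77.8% of the 2535 genes in all. This cut does not match the signal, since the median mean signal was 9.61 for these members and 8.94 for the 2535 genes. The plot of all member intervals shows how few reach the 1.2-fold lines.

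**Figure D1:**
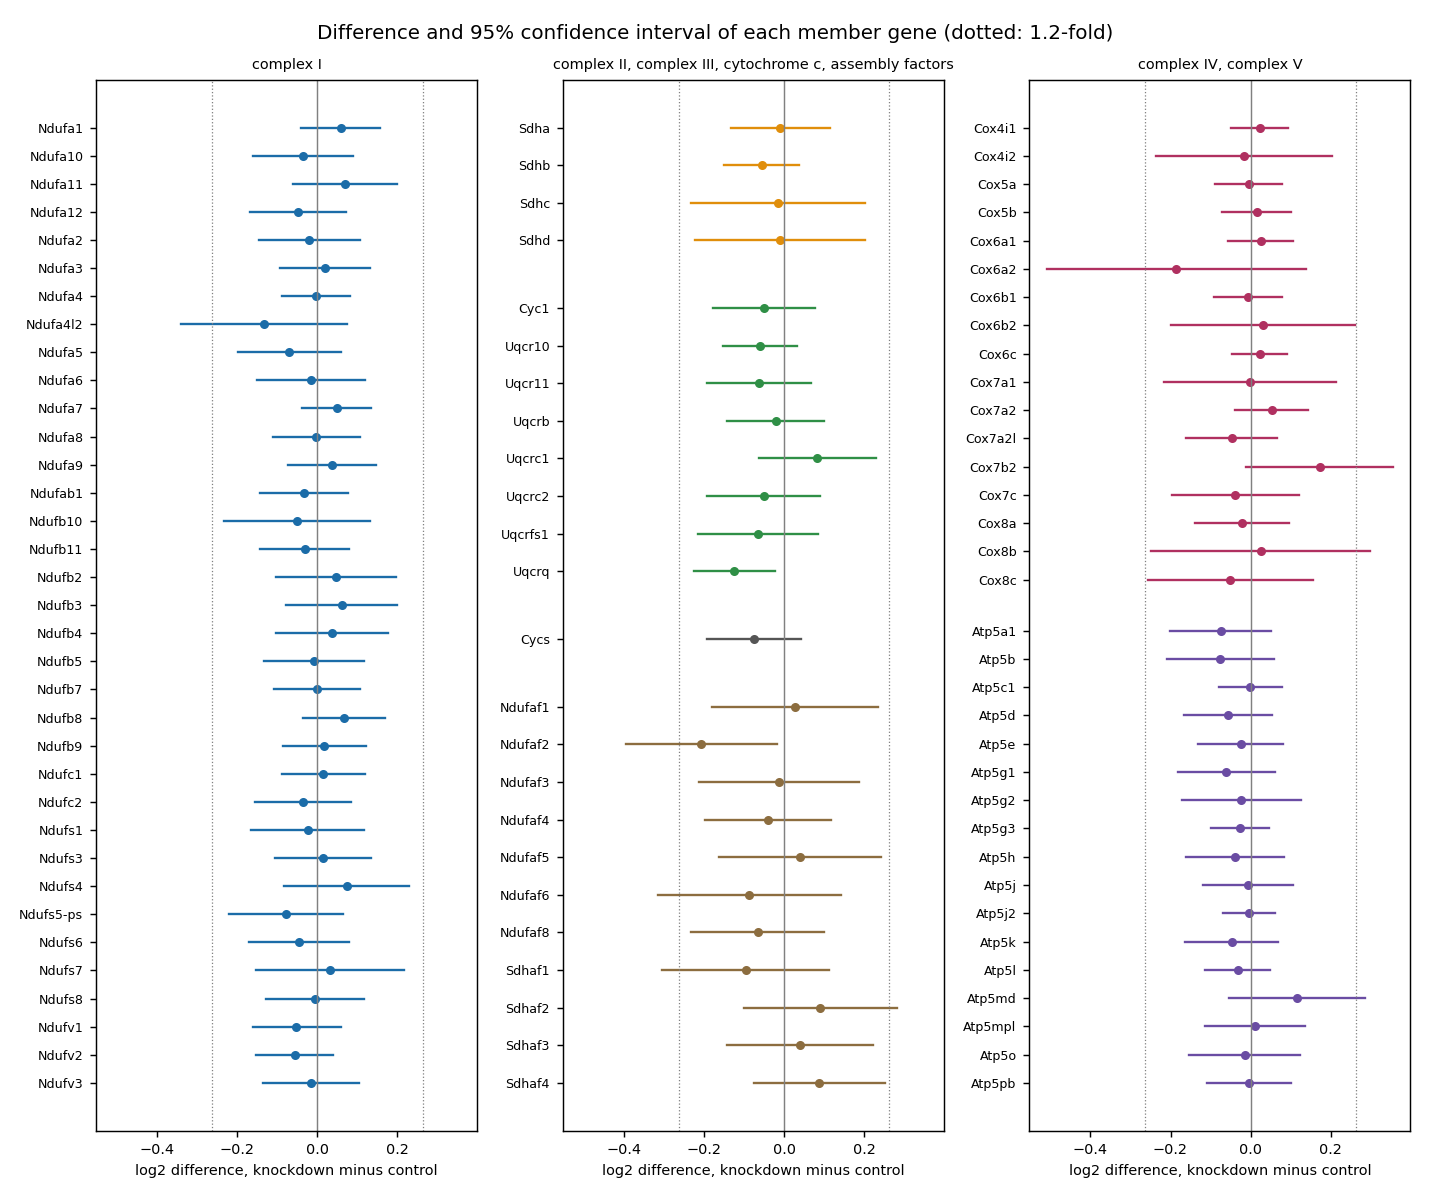
Log2 difference of each of the 93 member genes, knockdown minus control, on the horizontal axis (points), with the 95% confidence interval of the limma fit (lines), n = 2 arrays per group, in colours by complex. Dotted lines mark 1.2-fold, and 84 intervals lie wholly between them.

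**Figure D2:**
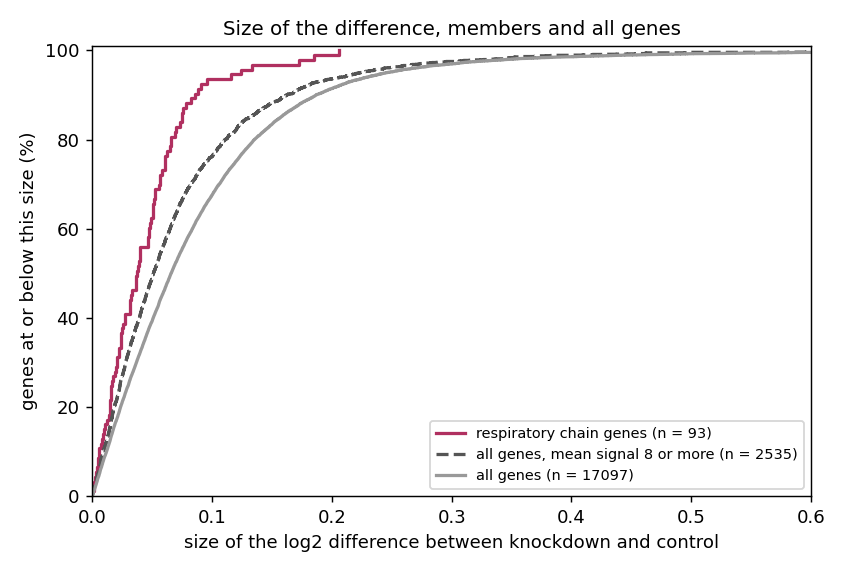
Cumulative percentage of genes (vertical axis) by the size of the log2 difference between knockdown and control (horizontal axis, sign dropped), for the 93 member genes, the 2535 genes with a mean signal of 8 or more, and all 17097 genes. The largest member difference is 0.21, and the axis ends before the largest differences of the other sets.

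The 2 knockdown arrays did not stand on the same side of the controls. In knockdown 1 the member genes had a median of -0.037 relative to the mean of the controls, and 73 of 93 were below that mean. In knockdown 2 the median was 0.014, and 55 of 93 were above the mean. Over all 17097 genes the median was -0.0031 in knockdown 1, and 8717 genes were below the control mean. In knockdown 2 the median over all genes was 0.014, and 9465 were above that mean. The member median in knockdown 2 was thus near that of all genes. The SD of the difference between arrays of a pair was 0.19 over all probe sets for the knockdown pair and 0.109 for the control pair.

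The count of passing members turns on which knockdown array is kept. Without knockdown 2, 25 member probe sets passed (15.9%), 1 higher and 24 lower, where 12.8% of all probe sets passed. Without knockdown 1, 7 member probe sets passed (4.46%), 6 higher and 1 lower, where 3.71% of all probe sets passed. Both member shares, counted in either direction, are near those of all probe sets. The shares of all probe sets are not split by direction. Whether the uneven split between higher and lower is particular to the members was therefore not tested. These fits assume that the lone knockdown array varies like the controls. Chadl itself read 4.29 and 4.64 in the knockdown arrays, against 4.91 and 4.84 in the controls, a log2 difference of -0.41 (95% interval -0.69 to -0.12, limma adjusted p = 0.608). It did not pass with both knockdown arrays and passed without knockdown 2, at -0.58.

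**Figure D3:**
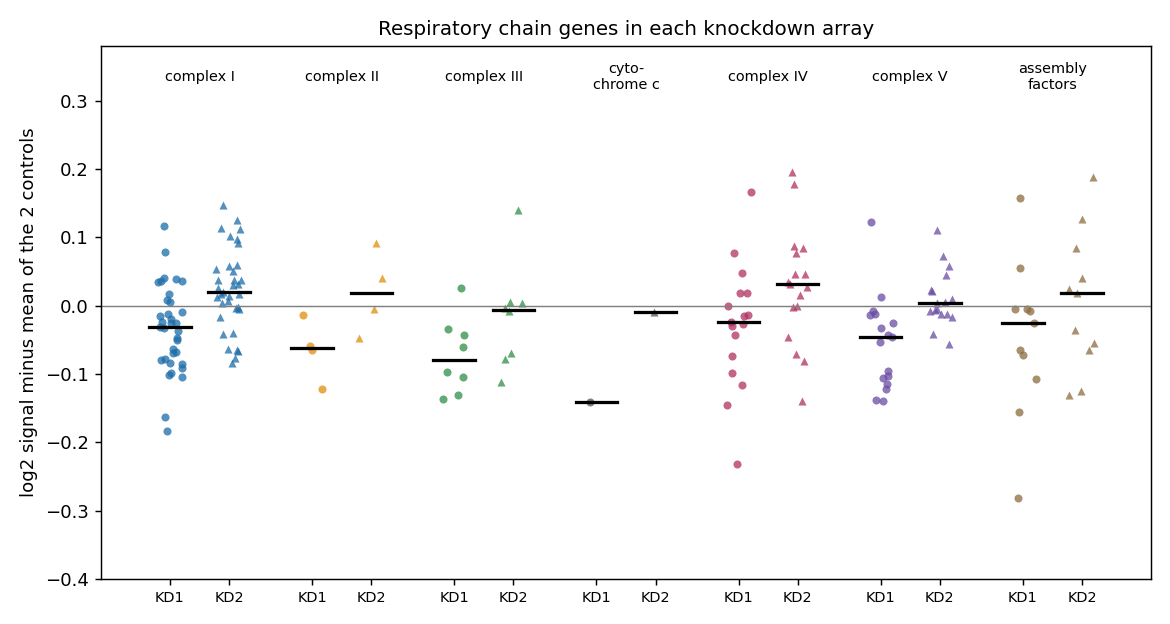
Log2 signal of each member gene in knockdown 1 (KD1, circles) and knockdown 2 (KD2, triangles), minus the mean of the 2 control arrays (vertical axis), by complex. Black bars are medians, and for complexes I, II, IV and V and the assembly factors the bar is below 0 in knockdown 1 and above 0 in knockdown 2.

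Genes of the respiratory chain are known targets of the transcription factors NRF1, GABPA of the ETS family, YY1 and the oestrogen-related receptors (ERR). Promoters of 75 of the 93 member genes, 250 bases before to 50 bases after the start, were read from RefSeq sequence of build GRCm38.p6, 80 promoters in all, and searched on both strands. The NRF1-type letters GCGCATG stood in 15 of the 75 genes (20%), against 6.25% of the other named genes on the array and 4.41% of all genes in the promoter table. The ETS-type letters CCGGAAG stood in 20 (26.7%), against 15% and 9.93% in the same order. The YY1-type letters AAGATGG stood in 12 (16%), against 7.57% and 7.28%, and the ERR-type letters AAGGTCA in 7 (9.33%), against 4.63% and 5.38%. The ETS-type letters end as the YY1-type and ERR-type letters begin, so their matches can overlap. At least 1 of the 4 motifs stood in 42 member genes, and 33 held none.

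The promoters of 3 genes are shown to let the letters be seen, with motif matches on either strand in capitals. The promoter of Cycs, the electron carrier between complexes III and IV (chr6:50566520-50566819, minus strand), holds the NRF1-type letters. That of Atp5k, which encodes subunit e of the ATP synthase (chr5:108434350-108434649, minus strand), holds NRF1-type letters on both strands, ETS-type and ERR-type letters. That of Ndufaf2, the member with the most negative difference (chr13:108158576-108158875, minus strand), holds none of the 4, which says only that these letters are not in this window.
Cycs: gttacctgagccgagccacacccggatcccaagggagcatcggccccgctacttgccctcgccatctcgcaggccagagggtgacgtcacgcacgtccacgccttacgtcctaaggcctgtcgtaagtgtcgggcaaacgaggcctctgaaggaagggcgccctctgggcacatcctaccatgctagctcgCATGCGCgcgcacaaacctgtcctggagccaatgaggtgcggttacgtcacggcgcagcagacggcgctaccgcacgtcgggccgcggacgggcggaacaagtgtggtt
Atp5k: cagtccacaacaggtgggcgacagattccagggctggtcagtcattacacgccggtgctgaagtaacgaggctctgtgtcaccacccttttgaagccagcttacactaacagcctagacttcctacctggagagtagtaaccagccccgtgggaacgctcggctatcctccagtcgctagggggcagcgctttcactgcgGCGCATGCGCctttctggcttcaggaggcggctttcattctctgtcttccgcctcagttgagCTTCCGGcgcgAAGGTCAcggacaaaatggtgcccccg
Ndufaf2: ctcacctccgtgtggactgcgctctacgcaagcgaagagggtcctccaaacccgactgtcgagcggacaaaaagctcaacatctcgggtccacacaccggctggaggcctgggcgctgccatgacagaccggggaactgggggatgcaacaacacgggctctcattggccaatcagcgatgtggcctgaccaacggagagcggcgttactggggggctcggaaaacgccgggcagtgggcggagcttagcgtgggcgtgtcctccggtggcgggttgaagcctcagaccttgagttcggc

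Members with and without each motif are set side by side here with no test, and the groups with a motif hold 7 to 20 genes. The median log2 difference was -0.016 in the 15 genes with the NRF1-type letters and -0.0077 in the 60 without. It was -0.0086 in the 20 genes with the ETS-type letters and -0.0081 in the 55 without. It was 0.0055 with and -0.013 without the YY1-type letters, and -0.024 with and -0.0067 without the ERR-type letters. A match of letters is a description of the sequence and not a bound site.

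Complex I, the NADH dehydrogenase, had a median log2 difference of -0.0058 over the 35 genes placed in it by symbol. They covered -0.13, for the dim Ndufa4l2, a relative of Ndufa4 taken up below, to 0.073 for Ndufs4. Its medians were -0.032 in knockdown 1 and 0.02 in knockdown 2, and 5 genes (14.3%) lay above and 6 (17.1%) below both controls, against 21.2% and 17.1% of all genes. Of all genes with a mean signal of 8 or more, 22.6% lay above and 21.9% below both controls. The hydrophilic arm holds the flavin and iron-sulfur clusters. Ndufv1, which carries the flavin that first takes electrons from NADH, read 9.31 and 9.33 in the knockdown arrays, against 9.37 and 9.38 in the controls (difference -0.052, 95% interval -0.16 to 0.058). Ndufv2, a neighbouring iron-sulfur subunit, read 9.93 and 9.91 in knockdown, against 9.99 and 9.96 in control (-0.056, -0.15 to 0.04). Both genes read a little lower in each knockdown array than in each control, by 1.04-fold on average, and neither passed. Ndufs1, the subunit with the most iron-sulfur clusters, read 8.58 and 8.67 in knockdown, against 8.64 and 8.65 in control, and the groups overlapped.

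Ndufs7, which holds the last cluster before ubiquinone, read 8.87 and 9.10 in the knockdown arrays, against 8.95 and 8.96 in the controls. The knockdown arrays lay on opposite sides of the controls, with 1 of the 2 largest gaps between knockdown arrays of any member, and the difference was 0.032 (-0.15 to 0.22). Over the 6 core subunits of the hydrophilic arm measured (Ndufs1, Ndufs3, Ndufs7, Ndufs8, Ndufv1 and Ndufv2) the median was -0.015. It was -0.055 in knockdown 1 alone and 0.012 in knockdown 2 alone.

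The accessory subunits of complex I, which surround its core and are needed for its assembly and stability, went both ways. The 9 Ndufb genes, all subunits of the membrane arm, had a median of 0.017 and ran from -0.052 for Ndufb10 to 0.066 for Ndufb8. Ndufb8 read 9.76 and 9.81 in knockdown, against 9.72 and 9.71 in control, so that its groups did not overlap, although a second, dimmer probe set differed in sign (-0.055). The 14 genes with symbols starting Ndufa had a median of -0.0096. Ndufa1, a membrane subunit, read 10.71 and 10.82 in knockdown, against 10.71 and 10.70 in control (0.059, -0.04 to 0.16). Ndufa7 read 10.23 and 10.25 in knockdown, against 10.19 and 10.20 in control (0.048, -0.038 to 0.13), and the groups did not overlap. Of its 5 probe sets 1 had the opposite sign, and the range over them was -0.09 to 0.048.

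Ndufs5-ps, a pseudogene symbol that the naming rule takes, read 8.13 and 8.14 in knockdown, against 8.22 and 8.21 in control (-0.079, -0.22 to 0.064). Signal of such a pseudogene and of its parent gene cannot be told apart here. Ndufab1 encodes the mitochondrial acyl carrier protein. Its brightest probe set differed by -0.034, and its dimmest read 3.36 and 3.40 in knockdown, against 3.67 and 3.62 in control. The dimmest probe set lay below the median of all probe sets, differed by -0.26 (limma unadjusted p = 0.0075, adjusted p = 0.569) and had the smallest p of all member probe sets. The other probe sets of the gene differed by -0.015 and -0.15.

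Complex II, succinate dehydrogenase, is shared with the citric acid cycle. Its 4 genes had a median log2 difference of -0.012. Knockdown 1 gave -0.063 and knockdown 2 gave 0.018. Sdhb, the iron-sulfur subunit, read 9.94 and 9.96 in the knockdown arrays, against 9.99 and 10.02 in the controls (-0.056, -0.15 to 0.039), without overlap. Sdha, the flavoprotein that oxidises succinate, read 8.94 and 8.95 in knockdown, against 8.93 and 8.97 in control (-0.0088, -0.13 to 0.11). Its 4 probe sets differed in sign and ran from -0.16 to 0.086, with both ends set by dim probe sets. The membrane anchors were dimmer and less precise, with a difference of -0.015 for Sdhc (-0.23 to 0.2) and of -0.0098 for Sdhd (-0.22 to 0.2). Sdhc read 7.04 and 7.25 in knockdown, against 7.18 and 7.13 in control, and Sdhd read 6.81 and 6.91 in knockdown, against 6.96 and 6.79 in control. The arrays of the groups overlapped in Sdha, Sdhc and Sdhd.

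Of the 8 genes of complex III, the cytochrome bc1 complex, 7 had a negative log2 difference, against 8082 of all 17097 genes. Their median was -0.056. It was the most negative median of the 5 complexes with all arrays, but not without control 2, where it was -0.033, against -0.041 for complex II and -0.038 for complex V. The medians were -0.079 in knockdown 1 and -0.0062 in knockdown 2. Uqcrq, which encodes a small subunit of the complex, read 9.67 and 9.70 in the knockdown arrays, against 9.83 and 9.79 in the controls. Both knockdown arrays were below both controls, by -0.12 on average (95% interval -0.23 to -0.023, SE 0.043), which is 1.09-fold lower. The limma p was 0.0228 unadjusted and 0.648 adjusted. Its other 3 probe sets, all dimmer, differed by -0.036, -0.11 and -0.14, the same sign.

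Cyc1, the cytochrome c1 that hands electrons to cytochrome c, read 9.56 and 9.67 in the knockdown arrays, against 9.64 and 9.70 in the controls (-0.051, -0.18 to 0.076). Uqcrfs1, the Rieske iron-sulfur protein, read 9.05 and 9.04 in knockdown, against 9.04 and 9.19 in control (-0.065, -0.21 to 0.084). The groups overlapped in both of these redox subunits. The structural core proteins stood on opposite sides. Uqcrc1 read 8.74 and 8.85 in knockdown, against 8.69 and 8.73 in control (0.083, -0.063 to 0.23), without overlap. Uqcrc2 read 8.61 and 8.70 in knockdown, against 8.69 and 8.72 in control (-0.051, -0.19 to 0.09), with overlap. Uqcr10, a small membrane subunit, read 10.12 and 10.08 in knockdown, against 10.18 and 10.15 in control (-0.061, -0.15 to 0.032), and its groups did not overlap. Uqcrh was not analysed here.

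Cytochrome c itself, Cycs, read 10.28 and 10.41 in the knockdown arrays, against 10.44 and 10.41 in the controls. In this brightest probe set only knockdown 1 stood apart, and the difference was -0.075 (-0.19 to 0.042). Relative to the control mean it was -0.14 in knockdown 1 and -0.0087 in knockdown 2. A second bright probe set read 9.54 and 9.70 in knockdown, against 9.75 and 9.72 in control (-0.12, -0.26 to 0.022), without overlap. A dim probe set differed by -0.079, also without overlap.

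Complex IV, cytochrome c oxidase, had a median log2 difference of -0.0015 over 17 genes. Knockdown 1 gave -0.024 and knockdown 2 gave 0.032. Cox4i1, the general form of the largest nuclear-encoded subunit, read 11.10 and 11.15 in the knockdown arrays, against 11.10 and 11.10 in the controls (0.023, -0.049 to 0.094). Cox5a, which binds a thyroid hormone metabolite in bovine enzyme, read 10.93 and 11.01 in knockdown, against 10.98 and 10.97 in control (-0.0047, -0.088 to 0.079). Cox5b, a zinc-binding subunit, read 10.54 and 10.60 in knockdown, against 10.55 and 10.56 in control (0.015, -0.071 to 0.1). The groups overlapped in all 3 and the intervals lay within 1.2-fold.

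Several subunits of complex IV exist as a general form and as forms known from muscle, heart, lung or testis. The 10 general forms had a median of 0.0053 and ran from -0.048 for Cox7a2l to 0.053 for Cox7a2. Cox7a2 read 10.45 and 10.52 in the knockdown arrays, against 10.45 and 10.42 in the controls (-0.039 to 0.14), without overlap. Cox7a2l, which helps to join complexes III and IV into supercomplexes, read 9.29 and 9.24 in knockdown, against 9.31 and 9.31 in control (-0.16 to 0.067), without overlap. Cox6a1 differed by 0.026, Cox6b1 by -0.0073 and Cox8a by -0.021, all with overlapping arrays, and a second probe set of Cox6a1 had the opposite sign (-0.026). A second probe set of Cox8a differed by -0.038, without overlap.

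Of the 7 tissue forms of complex IV, 6 lay below the median signal of all genes, 4.86, where array values compress any change. Cox4i2, known from lung and from low oxygen, read 4.02 and 4.22 in the knockdown arrays, against 4.13 and 4.14 in the controls. Cox7b2, a form known from testis, read 4.02 and 4.03 in knockdown, against 3.89 and 3.82 in control. Its groups did not overlap, and the difference of 0.17 (-0.011 to 0.36, limma unadjusted p = 0.0621, adjusted p = 0.699) was the highest of all members. Cox6a2, the heart and muscle form, read 4.59 and 4.69 in knockdown, against 4.62 and 5.03 in control (-0.19, -0.51 to 0.14). Here 1 control array was high and the groups overlapped.

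Cox8b, a muscle form, read 3.80 and 4.14 in the knockdown arrays, against 3.95 and 3.94 in the controls, the other of the 2 largest gaps between knockdown arrays. Cox6b2 and Cox8c, testis forms, differed by 0.032 and -0.051, and Cox7a1, a heart and muscle form, by -0.0015, all with overlap. Markers of the tissues that use these forms were dim as well, with 0 of 8 skeletal muscle and heart markers and 0 of 6 testis markers at or above the median signal of all genes. Of 9 chondrocyte markers 5 were at or above it, and their median relative to the control mean was -0.09 in knockdown 1 and 0.048 in knockdown 2. The cartilage collagen Col2a1 read 8.23 and 9.17 in knockdown, against 9.01 and 9.08 in control, with knockdown 1 low. Col11a1, another cartilage collagen, read 9.72 and 9.82 in knockdown, against 9.60 and 9.64 in control, with both knockdown arrays high. Relative to the control mean, knockdown 1 stood at 0.0056 for Sox9 and -0.015 for Acan. It stood at -0.82 for Col2a1, -0.77 for Matn1, -0.68 for Col9a1 and -0.62 for Hapln1. In knockdown 2 these were 0.12, 0.048, 0.17 and -0.2, and both knockdown arrays of Hapln1 lay below both controls. Of the 9 markers 7 were below the control mean in knockdown 1 and 4 in knockdown 2. The part of these markers in the values of the chain genes was not tested.

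**Figure D4:**
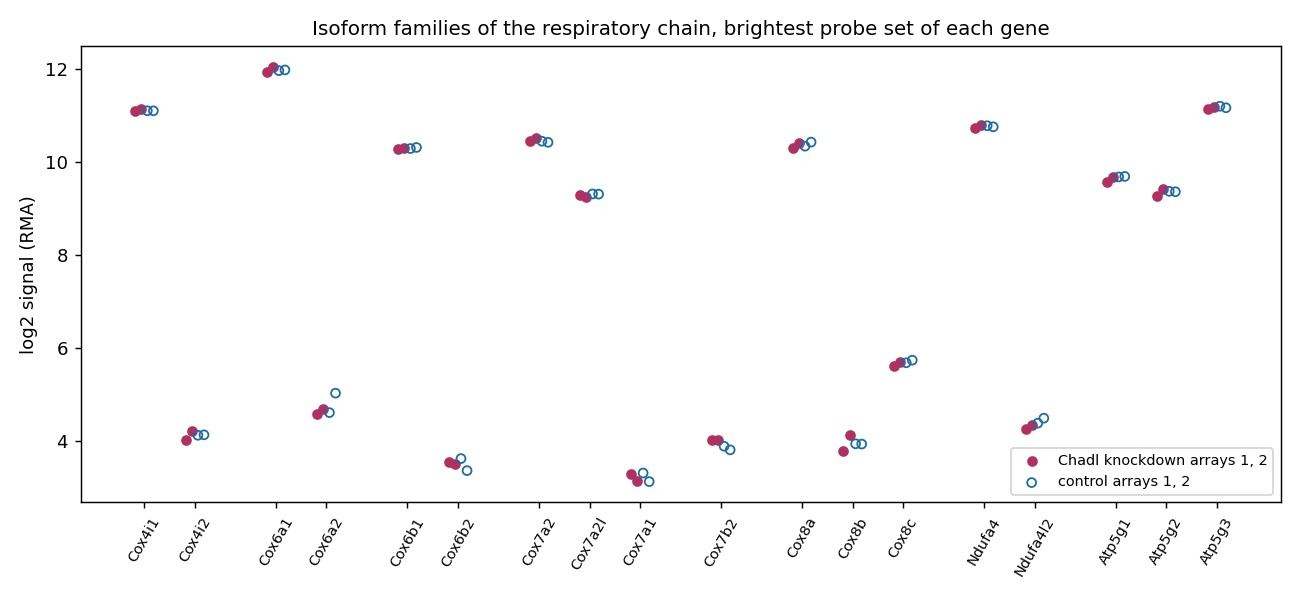
Log2 signal after RMA (vertical axis) of isoform families, for the brightest probe set of each gene, in the 2 knockdown arrays (filled, left) and the 2 control arrays (open, right). Signals of different probe sets are on no common scale. Arrays of a gene look close on this wide axis, although Cox8b read 3.80 and 4.14 in knockdown and Cox6a2 4.62 and 5.03 in control.

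Ndufa4 carries a complex I symbol and is known as a component of complex IV. It read 10.73 and 10.80 in the knockdown arrays, against 10.78 and 10.76 in the controls (-0.0031, -0.089 to 0.082), with overlap. Its relative Ndufa4l2, known for induction by low oxygen, was dim and read 4.26 and 4.36 in knockdown, against 4.39 and 4.50 in control (-0.13, -0.34 to 0.074). Both knockdown arrays were below both controls, and the difference did not pass.

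Complex V, the ATP synthase, had a median log2 difference of -0.024 over 17 genes. Knockdown 1 gave -0.047 and knockdown 2 gave 0.0037. Of the 17 genes 15 had a negative difference, against 8082 of all 17097 genes. In knockdown 1 alone 15 were below the control mean, and in knockdown 2 alone 8 were. The F1 head holds the catalytic sites and the central stalk. Atp5a1, its alpha subunit, read 9.60 and 9.73 in the knockdown arrays, against 9.73 and 9.75 in the controls (-0.075, -0.2 to 0.051). Atp5b, the catalytic beta subunit, read 9.80 and 9.92 in knockdown, against 9.98 and 9.89 in control (-0.076, -0.21 to 0.058). In both, knockdown 1 was the lowest array, at -0.14 relative to the control mean. Atp5c1, the gamma subunit that turns inside the head, read 10.76 and 10.81 in knockdown, against 10.79 and 10.78 in control (-0.0015, -0.08 to 0.077), and the groups overlapped. A much dimmer probe set of Atp5c1 differed by -0.14, without overlap. Over the 5 F1 genes the median was -0.056.

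The rotor ring is built from copies of subunit c, which is encoded by Atp5g1, Atp5g2 and Atp5g3 as the same mature protein with different import sequences. Atp5g1 read 9.57 and 9.68 in the knockdown arrays, against 9.68 and 9.69 in the controls (-0.061, -0.18 to 0.06). Atp5g2 read 9.26 and 9.42 in knockdown, against 9.37 and 9.36 in control (-0.024, -0.17 to 0.12). Atp5g3 read 11.14 and 11.18 in knockdown, against 11.20 and 11.17 in control (-0.027, -0.099 to 0.045). In all 3 genes knockdown 1 was the lowest array, and in Atp5g2 knockdown 2 was the highest. The 4 genes of the peripheral stalk, which holds the head still, had a median of -0.011 and ran from -0.039 for Atp5h to -0.0042 for Atp5pb.

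Small membrane subunits of the ATP synthase hold its dimers together. Atp5md, known as DAPIT, read 7.77 and 7.76 in the knockdown arrays, against 7.70 and 7.59 in the controls (0.12, -0.054 to 0.29), without overlap. Of this group of 5 genes Atp5md and Atp5mpl (0.011) were above 0, and the others ran down to -0.047 for Atp5k, whose promoter is printed above.

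Assembly factors help to build complexes I and II without staying in them. The 11 genes had a median log2 difference of -0.013, and they were dimmer than the subunits, with 7 of 11 intervals within 1.2-fold, against 77 of 82 for the subunits and cytochrome c. Ndufaf2, a relative of Ndufa12 that acts late in complex I assembly, read 7.50 and 7.65 in the knockdown arrays, against 7.82 and 7.74 in the controls. Both knockdown arrays were below both controls, the difference was -0.21 (95% interval -0.39 to -0.018, SE 0.08), and the limma p was 0.0356 unadjusted and 0.666 adjusted. The 7 Ndufaf genes had a median of -0.04, and a dimmer probe set of Ndufaf4 differed by -0.22 (limma unadjusted p = 0.0257, adjusted p = 0.648) where its brightest differed by -0.04.

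The Sdhaf factors fit flavin and iron-sulfur clusters into complex II. Sdhaf1, which serves the iron-sulfur subunit, read 6.10 and 6.22 in the knockdown arrays, against 6.21 and 6.29 in the controls (-0.096, -0.3 to 0.11), with overlap. Sdhaf4, which serves the flavoprotein, read 8.41 and 8.27 in knockdown, against 8.25 and 8.25 in control (0.088, -0.075 to 0.25), without overlap. Sdhaf2, which attaches the flavin, differed by 0.091 in its brightest probe set and by -0.11 in the other.

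More than 1 probe set was present for 43 of the 93 genes, and in 9 of these genes some probe sets differed in sign. The widest gap between probe sets of a gene was 0.25 on the log2 scale, which exceeds the difference of every member in its brightest probe set. Of the 157 probe sets 30 carry the suffix _s_at or _x_at, which mark shared probes. Probe sets with the suffix _a_at were not counted among them. No member was lost to a filter on low values, since none was applied, and 86 of 93 genes lay at or above the median signal of all genes.

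Neighbouring mitochondrial gene lists gave no passing gene either. The mitochondrial ribosome, with 73 genes, had a median log2 difference of -0.02, with 4 genes (5.48%) above and 17 (23.3%) below both controls, against 21.2% and 17.1% of all genes. Among genes with a mean signal of 8 or more those shares were 22.6% and 21.9%. The citric acid cycle and pyruvate dehydrogenase, with 15 of 17 listed genes named on the array, had a median of -0.041. Knockdown 1 gave -0.067 and knockdown 2 gave 0.019. Pdha1, a pyruvate dehydrogenase subunit, read 10.08 and 10.04 in knockdown, against 9.97 and 9.97 in control (0.086), without overlap. Suclg2, a succinyl-CoA ligase subunit, read 8.06 and 8.36 in the knockdown arrays, against 8.44 and 8.43 in the controls (-0.23, limma unadjusted p = 0.0542, adjusted p = 0.691). Carriers, channels and membrane scaffolds, 11 of 12 listed, had a median of -0.049, and 0 of them lay above and 5 (45.5%) below both controls, against the same 21.2% and 17.1%. Vdac3, an outer membrane channel, read 10.33 and 10.37 in knockdown, against 10.43 and 10.44 in control (-0.084). Genes of ubiquinone synthesis, 8 of 11 listed, had a median of -0.024, and 31 of 37 listed assembly factors outside the symbol rule had one of -0.0019.

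Regulators of mitochondrial biogenesis, 23 of 26 listed, had a median log2 difference of -0.012, with 3 genes (13.0%) above and 6 (26.1%) below both controls, against 21.2% and 17.1% of all genes. Nrf1 read 5.42 and 5.51 in the knockdown arrays, against 5.63 and 5.65 in the controls (-0.17, -0.38 to 0.027). Esrra, the gene of an oestrogen-related receptor, read 5.43 and 5.76 in knockdown, against 5.80 and 5.79 in control (-0.2, -0.48 to 0.083). Esrrb was dim and the only gene of the list with an unadjusted p under 0.05, at -0.21 (limma unadjusted p = 0.0294, adjusted p = 0.658). Sirt3, a mitochondrial deacetylase, read 5.12 and 5.37 in knockdown, against 5.06 and 4.94 in control (0.25, -0.0093 to 0.51). The groups did not overlap in any of these 4 genes, and none passed the adjusted threshold. Gabpa lay below both controls as well (-0.11), while Twnk (0.14) and Pprc1 (0.092) lay above both. The groups overlapped in Yy1 (0.05) and in Esrrg (0.0063), the gene of another oestrogen-related receptor.

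**Figure D5:**
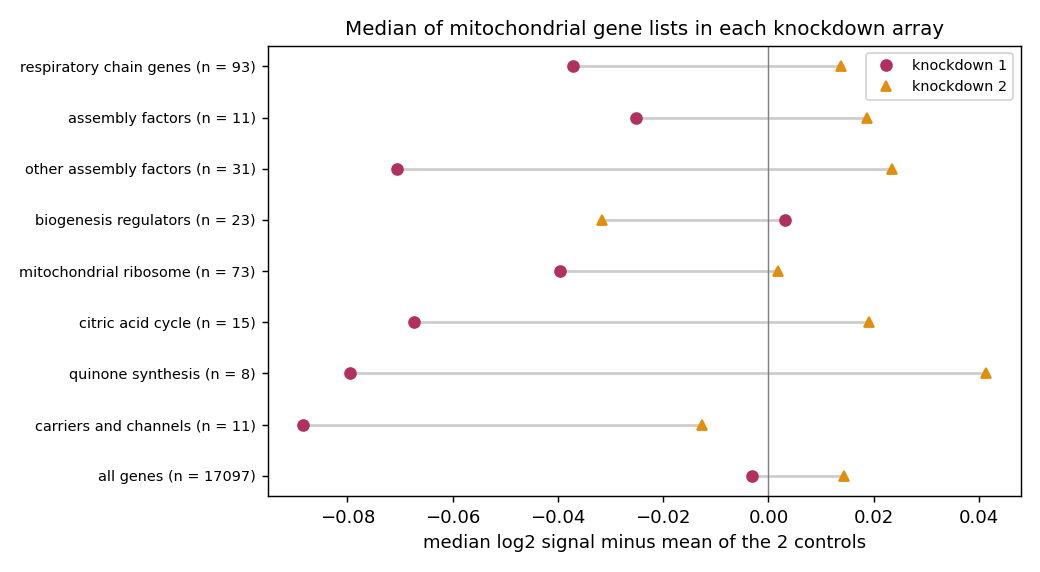
Median log2 signal minus the mean of the 2 control arrays (horizontal axis) for mitochondrial gene lists and for all genes, in knockdown 1 (circles) and knockdown 2 (triangles). The medians of the 2 knockdown arrays lie on opposite sides of 0 for every row except carriers and channels, and the biogenesis regulators are the row with knockdown 1 to the right.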

How the data were processed

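The authors deposited 1 log2 signal per probe set and array, normalized with RMA, per the submitters' processing notes, whose version is not given in the sources used here. RMA makes the arrays' distributions alike, so differences in total RNA are removed, and it compresses changes of dim genes. The values ran from 2.17 to 12.72. Of 45141 probe sets 104 array controls were left out. The platform annotation gave 28898 probe sets 1 symbol, and all 93 member genes were matched by gene identifier to a GRCm38.p6 table.

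Groups came from the sample titles. The fit of knockdown minus control used limma 3.58.1 (R 4.3.3, eBayes with trend, 2 residual and 5.32 prior degrees of freedom, two-sided, Benjamini-Hochberg over all 45037 probe sets, threshold 0.05). A gene stands for its brightest single-symbol probe set. Members, gene lists, roles and tests were chosen with earlier results of these data known. The rule for named genes took any passing member, up to 8 genes in each direction with the smallest p among those without overlap, core subunits, isoform families, the 2 largest gaps between knockdown arrays and the 2 largest differences of assembly factors, 46 genes in all. Genes named beside these were chosen after their values were seen. On 5 simulated sets of this comparison with 200 changed probe sets among 45037, the limma step recovered 97.6% of 2-fold and 100.0% of 4-fold changes and called 11.6 unchanged probe sets on average. The simulated arrays of both groups had the same spread, whereas the real pairs had SDs of 0.19 (knockdown) and 0.109 (control). Changes as small as those of the members were not simulated, so these shares do not give the recovery of such changes. The number of arrays, 2 per group, limits the precision.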

Additional observations from a re-analysis of the deposited data

How the results depend on the processing

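With 2 arrays per group, small changes cannot be told from none, and dim tissue forms are compressed by RMA. No member probe set passed under quantile normalization, centring, leaving out dim probe sets (below the 40th percentile) or shared-probe (_s_at and _x_at) members, averaging probe sets, eBayes without trend, robust eBayes, 1 probe set per gene, an adjusted p of 0.1, or without either control. The numbers in the titles are shared between groups, but the deviations of same-numbered arrays correlated at only 0.0117 over all probe sets with 2 pairs, so they are taken as numbers only. With the replicate block, 0 member probe sets passed and 1 gene was lower at an unadjusted p under 0.05. That number of lower genes was also 1, against 2, with averaged probe sets, without shared-probe members, without the trend, and for the subunits alone (chosen after seeing the data, as was leaving out members below the median signal). The number of higher genes was 1, against 0, with averaged probe sets and without the trend.

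Leaving out each array in turn gave 0 to 25 passing member probe sets, 0 to 15 higher and 0 to 25 lower genes at an unadjusted p, 17 to 42 genes with every knockdown array above the controls and 22 to 63 with every one below, where fewer arrays leave fewer ways to overlap, and a member median of -0.037 to 0.014. Medians ran from -0.032 to 0.02 for complex I, -0.063 to 0.018 for complex II, -0.079 to -0.0062 for complex III, -0.024 to 0.032 for complex IV and -0.047 to 0.0037 for complex V, with the ends set by the fits with a single knockdown array. The cause was not tested. For the counts of higher and lower genes and of genes above or below the controls with an array left out, no shares of all genes are given. Those counts therefore do not show whether the member genes differ from other genes. Of 594 values of the 46 named genes under the alternatives, 573 kept their side of the threshold, or moved by less than the spread between replicates, 8 moved further and 13 passed only in a fit with a single knockdown array. The sign changed in 35 of them, in 21 genes. In genes whose groups do not overlap, leaving out an array cannot change it. Chadl ranged from -0.58 to -0.23 and passed only without knockdown 2.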
